A study of Mus musculus with 6 samples.

Results

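The genes described are those that encode subunits of the mouse proteasome. They were taken by symbol: protein-coding genes of the count table whose GENCODE symbol is Psm, then a letter from a to f, then a digit, leaving out the interferon-inducible catalytic subunits Psmb8 and Psmb9. The rule found 44 genes among the 39017 gene identifiers of the table, and 43 of them held enough counts to be tested. Of the 44, 31 belong to the standard 26S particle and 12 are alternative core subunits, assembly chaperones, activators or an inhibitor. The remaining gene, Psmc3ip, matches the pattern but encodes a cofactor of meiotic recombination, not a proteasome subunit, and it is kept in the counts because the rule takes it.

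The source was hippocampus of female mice of strain C57BL/6 with the genotype Tmem119-Cre:RiboTag. In the RiboTag allele, Cre adds an HA epitope to the ribosomal protein Rpl22, and Tmem119-Cre places Cre in cells that express the microglial gene Tmem119. The IP group holds 3 libraries of RNA that came down with anti-HA magnetic beads, and the input group holds 3 libraries made from the same tissue with no antibody. Both groups carry both alleles. The series title concerns a Kdm6a deletion in a multiple sclerosis model, but no label of the 6 libraries states a deletion, a disease or an age. Each IP library shares a title code with 1 input library, and these pairs are numbered 1 to 3. Whether each code is 1 animal is not stated, and the p-values therefore rest on the spread between these specimens, which may be partly technical. No precipitate from mice without the tag was used here, so RNA that sticks to beads was not measured.

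The proteasome is the protease complex that degrades proteins tagged with ubiquitin. Its 20S core is a barrel of outer alpha rings, which gate the entrance, and inner beta rings, which hold the cutting sites. The 19S particle caps the barrel: the ATPases of its base unfold substrates, and its lid removes ubiquitin. Cells of the immune system, and cells exposed to interferon, can swap the cutting subunits for immunoproteasome subunits and can cap the core with the PA28 activator, and both changes are best known from the making of peptides for antigen presentation.

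Library totals were 10757351 to 18558497 counts in IP and 18448897 to 20422140 counts in input, and 15153 to 16780 genes were detected in IP libraries and 18182 to 18789 in input libraries. Values below are CPM, counts scaled to a common library total, with TMM factors applied, and folds are log2 folds of IP over input from edgeR's quasi-likelihood test, called at a Benjamini-Hochberg adjusted p below 0.05 over 16196 tested genes. This test did not use the pairs. With the pair as a block, 4 proteasome genes were called higher and 13 lower, where 22.8% and 23.4% of all tested genes were. Tmem119 was at 2187, 2417 and 2104 CPM in IP libraries 1, 2 and 3, against 23.7, 28.5 and 26.5 CPM in input libraries 1, 2 and 3 (log2 fold 6.41, SE 0.18, adjusted p = 9.6e-08). All 6 microglial markers passed the test as higher in IP, and all 6 neuronal, 5 astrocytic and 5 oligodendrocytic markers as lower. The labels give microglia as the cell type of both groups, which the markers bear out for IP alone. Markers of the other cells were still present in IP: the 6 neuronal markers summed to 570.3 to 689.8 CPM in IP and 4944 to 5516 CPM in input. Of 5 endothelial markers, 4 passed as higher, and the sum of all 5 was 132 to 232 CPM in IP and 11.7 to 44.1 CPM in input. Among the 4, Flt1 (12, 9 and 93 counts in input libraries 1, 2 and 3) and Cdh5 (16, 0 and 32 counts) passed the filter on low counts through IP alone. Their calls carry no weight of their own.

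Promoter sequence is shown for a pair of catalytic core subunits of the standard particle, Psmb5, called lower in the results below, and Psmb6, not called there, and for a pair of interferon-linked members called higher, Psmb10 and Psme1. The 250 bases before the RefSeq start (GRCm38.p6) are printed from 5′ to 3′ on the gene's strand. Capitals mark the letters TGACNNNGC, the core of the antioxidant response element, to which NFE2-like factors that regulate proteasome genes bind. The windows are chr14:54617996-54618245 on the minus strand for Psmb5, chr11:70525107-70525356 on the plus strand for Psmb6, chr8:105938393-105938642 on the minus strand for Psmb10 and chr14:55578244-55578493 on the plus strand for Psme1.
Psmb5: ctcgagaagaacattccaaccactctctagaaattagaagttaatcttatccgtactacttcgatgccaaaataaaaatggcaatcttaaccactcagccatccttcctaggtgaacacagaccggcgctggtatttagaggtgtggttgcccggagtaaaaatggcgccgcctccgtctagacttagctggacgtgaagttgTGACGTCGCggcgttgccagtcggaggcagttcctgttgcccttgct
Psmb6: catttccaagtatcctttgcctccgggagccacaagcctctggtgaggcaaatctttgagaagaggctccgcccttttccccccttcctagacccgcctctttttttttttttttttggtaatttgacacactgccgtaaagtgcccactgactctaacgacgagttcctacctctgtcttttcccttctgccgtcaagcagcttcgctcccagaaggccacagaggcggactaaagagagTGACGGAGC
Psmb10: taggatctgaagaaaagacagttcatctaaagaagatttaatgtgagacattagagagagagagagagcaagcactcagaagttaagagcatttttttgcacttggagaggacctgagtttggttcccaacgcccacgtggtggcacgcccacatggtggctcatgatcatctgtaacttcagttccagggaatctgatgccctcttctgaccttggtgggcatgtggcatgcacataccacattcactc
Psme1: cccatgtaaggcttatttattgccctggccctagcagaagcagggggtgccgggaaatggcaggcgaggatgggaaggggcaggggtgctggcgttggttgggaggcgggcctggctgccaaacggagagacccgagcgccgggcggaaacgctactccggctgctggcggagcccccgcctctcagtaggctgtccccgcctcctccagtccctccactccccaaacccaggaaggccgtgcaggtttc

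In Psmb5 the capitals lie 39 to 47 bases before the start, and in Psmb6 they lie 1 to 9 bases before it. A RefSeq promoter window was found for 37 of the 44 members, and Psmb7 is among those with none. Some members have several windows, and a member counted once if any of its windows matched. The shares over all windows count each window, so the measures are not quite alike. On either strand, TGACNNNGC was found for 5 of these 37 members (13.5%: Psmb5, Psmb6, Psmc6, Psmd12 and Psmd9), against 10.2% of 32851 promoter windows of the same length. The interferon-stimulated response element, searched as GAAA, any 2 bases and GAAA, was found for 3 of 37 members (8.11%: Psmb3, Psmd4 and Psmd9), against 2.98% of all windows. The interferon gamma-activated site, searched as TTCNNNGAA, was found for 0 of 37 members, against 7.02% of all windows. None of these letter patterns was found in the windows of Psmb10 or Psme1. The 3 patterns do not contain one another, and a match describes letters in a window, not binding. Start sites differ between the annotations: the printed Psmb5 and Psmb10 windows reach into the gene as GENCODE draws it, and the Psme1 window lies wholly inside that gene.

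Before any correction for transcript length, most proteasome genes were not called or were lower in IP. A small set linked to antigen processing was called higher. Among the 43 tested members, 5 were higher and 12 lower in IP, and 26 were not called. The 5 include the germline subunit Psma8, which passed the filter on low counts through IP alone and so had to differ. Psma8 stays in all counts over the tested members. Over all 16196 tested genes, 47.7% were called, 23.8% as higher and 23.9% as lower, against 11.6% of members called higher and 27.9% called lower. The share of members called lower is therefore near the background. The median log2 fold of the members was -0.33, with quartiles of -0.83 and -0.10, against a median of -0.10 and quartiles of -1.23 and 0.98 over all tested genes. Within 1 log2 unit of zero lay 29 of 43 members and 45.8% of all tested genes. The member median was -0.27, -0.41 and -0.39 in pairs 1, 2 and 3 on the log2(CPM + 0.5) scale. In these bulk samples, fewer cells of a type and less RNA per cell cannot be told apart.

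Of the 31 standard subunits, 0 were called higher and 12 (38.7%) lower, against 23.8% and 23.9% over all tested genes. Psma8, which had to differ, is left out of the next count. Of the other 10 tested members that take part in proteasome function, 4 were called higher and 0 lower. Psme2 and Psme2b, both among these 4, share most of their 50-base stretches, so their calls are not independent. Of the standard subunits, 0 were called higher by DESeq2 and limma-voom too, and 0 were higher at an unadjusted p below 0.05. Of the other members, 1 was lower at an unadjusted p below 0.05 by edgeR, and 1 was called lower by DESeq2 and by limma-voom. All 3 IP libraries lay below all 3 input libraries for 22 members and above them for 6, where 32.9% of all tested genes did the first and 29% the second. Psma8 is among the 6. The CPM of all members summed to 2791, 2793 and 2419 in IP libraries 1, 2 and 3, against 3279, 3756 and 3281 in input libraries 1, 2 and 3. Without pair 2, only 7 members were called lower, when 17.9% of all genes tested were.

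**Figure D1:**
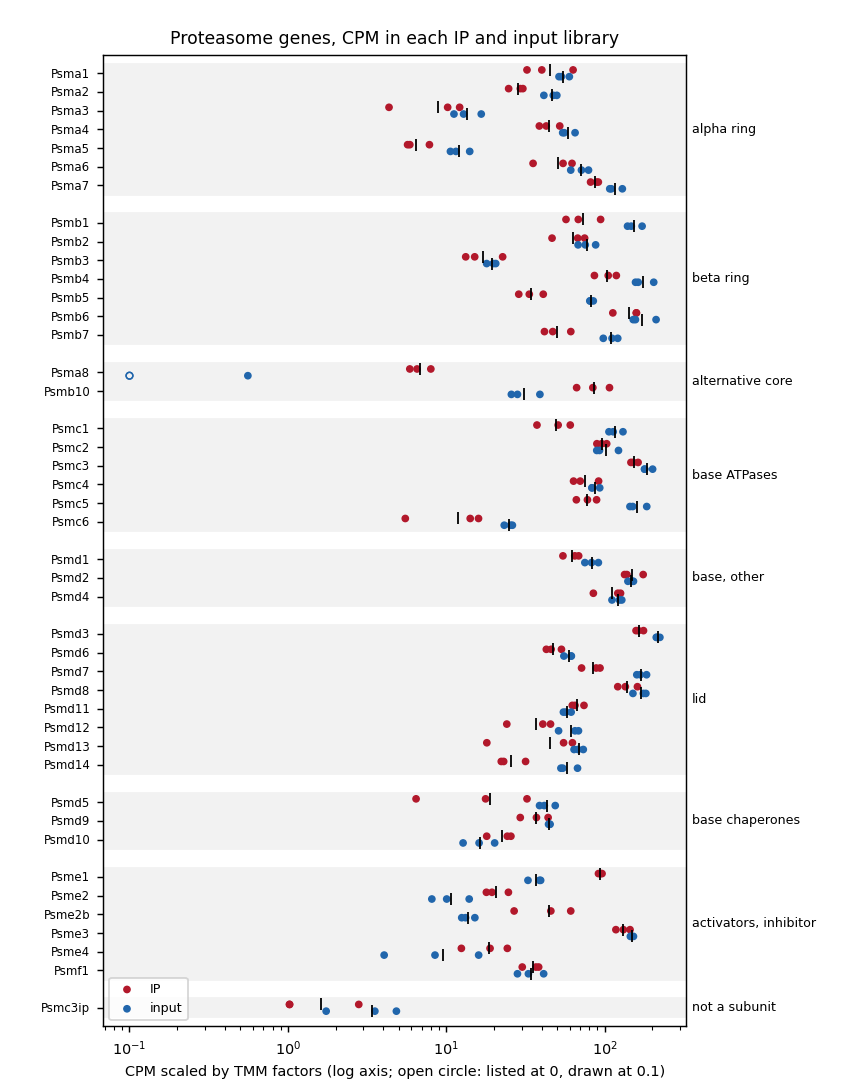
CPM of the 43 tested members in each IP (red) and input (blue) library on a log axis, grouped by role, with a tick at each group mean where no library is at 0. The IP points of Psmb10, Psme1, Psme2, Psme2b and Psma8 lie right of all their input points, while most points of the alpha and beta rings, the ATPases and the lid lie left of input.

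The alpha ring, whose 7 subunits form the gated entrance of the core, was lower in IP for Psma2 alone among its members. Its median log2 fold was -0.47, and all 7 folds were below 0. Psma5, with the lowest fold of the ring, was at 7.83, 5.88 and 5.70 CPM in IP libraries 1, 2 and 3, against 11.5, 14.1 and 10.6 CPM in input libraries 1, 2 and 3 (log2 fold -0.90, SE 0.40, adjusted p = 0.096). All 3 IP values were below all 3 input values, but the test was not passed, and 55.4% of the gene's 50-base stretches also occur in other genes, so its counts are uncertain. Psma1, with the highest fold of the ring, was at 63.1, 40.1 and 32.3 CPM in IP and at 51.5, 53.3 and 59.8 CPM in input (log2 fold -0.28, adjusted p = 0.42). Its IP library 1 was above every input library and the others were below. Psma2 averaged 28.2 ± 3.02 CPM in IP and 46.2 ± 4.41 CPM in input (SD, n = 3 each, log2 fold -0.71, edgeR adjusted p = 0.017). This call was lost in 5 of 20 alternatives: without input library 1 or 2, without pair 1 or 2, and where block and length correction were combined (adjusted p up to 0.097).

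The beta ring carries the cutting sites, and 4 of its 7 subunits were called lower in IP: Psmb5, Psmb7, Psmb1 and Psmb4. Psmb5, the subunit with chymotrypsin-like activity (chromosome 14, 54614119 to 54618022, minus strand, GRCm38), was at 33.4, 40.9 and 28.7 CPM in IP libraries 1, 2 and 3, against 80.5, 84.7 and 81.2 CPM in input libraries 1, 2 and 3. Every IP library was below every input library, with a log2 fold of -1.26 (SE 0.19, adjusted p = 0.00049), the lowest of the ring. Of its 50-base stretches, 57.1% occur in other genes, most of them in the copy Gm3375. Psmb7, the subunit with trypsin-like activity (chromosome 2, 38588036 to 38644087, minus strand), was at 61.1, 47.0 and 41.7 CPM in IP, against 98.0, 120.9 and 111.3 CPM in input. Its log2 fold was -1.14 (SE 0.19, adjusted p = 0.0010), and none of its 50-base stretches occurs in another gene. It overlaps Nek6 on the other strand and Gm27634 on its own strand.

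The remaining cutting subunit, Psmb6 with caspase-like activity, was not called. It was at 158.7, 158.2 and 112.5 CPM in IP libraries 1, 2 and 3, against 156.3, 211.0 and 151.3 CPM in input libraries 1, 2 and 3 (log2 fold -0.27, SE 0.20, adjusted p = 0.29). IP libraries 1 and 2 lay within the input values and IP library 3 below them. The 3 cutting subunits of the standard core thus had folds of -1.26, -1.14 and -0.27, and the differences between these folds were not tested. Psmb1, a structural subunit of the ring, averaged 73.1 ± 19.1 CPM in IP and 153 ± 17.2 CPM in input (SD, n = 3 each, log2 fold -1.06, edgeR adjusted p = 0.0023). Psmb4, a structural subunit needed in core assembly, was at 118.4, 105.2 and 86.1 CPM in IP, against 162.7, 203.9 and 156.5 CPM in input (log2 fold -0.76, SE 0.18, adjusted p = 0.0067). Its groups did not overlap. Psmb3, another structural subunit and the one with the highest fold of the ring, was at 15.1, 22.7 and 13.3 CPM in IP, against 17.98, 20.5 and 19.8 CPM in input (log2 fold -0.19, adjusted p = 0.64). The IP libraries lay on both sides of input.

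Psmb10 moved the other way from the subunit it can replace. It encodes the immunoproteasome subunit that takes the place of Psmb7 (chromosome 8, 105935735 to 105938444, minus strand). Psmb10 was at 84.1, 107.2 and 66.5 CPM in IP libraries 1, 2 and 3, against 28.1, 39.0 and 25.8 CPM in input libraries 1, 2 and 3. Every IP library was above every input library, with a log2 fold of 1.47 (SE 0.24, adjusted p = 0.00084) and log2(CPM + 0.5) differences of 1.56, 1.45 and 1.35 in pairs 1, 2 and 3. None of its 50-base stretches occurs in another gene, but Gm16156 overlaps it on the other strand, and the strand setting of the counting is not given in the sources used here. Per kilobase of the longest annotated transcript, the level of Psmb10 was 65.6 ± 15.6 CPM in IP and 23.6 ± 5.38 CPM in input, and the level of Psmb7 was 17.5 ± 3.53 CPM in IP and 38.6 ± 4.04 CPM in input (SD, n = 3 each). By the median length of coding transcripts, Psmb7 was at 43.0 CPM per kilobase in IP and 94.9 in input, and Psmb10 kept its values. By either length Psmb10 had the higher level of the pair in IP and Psmb7 the higher level in input.

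Psma8 encodes an alpha subunit that replaces Psma7 in germ cells of the testis (chromosome 18, 14706151 to 14762301, plus strand). In these female mice it held 148, 69 and 70 counts in IP libraries 1, 2 and 3, against 12, 0 and 0 counts in input libraries 1, 2 and 3. That is 7.99, 5.88 and 6.54 CPM in IP, against 0.559, 0 and 0 CPM in input, so all IP libraries were above all input libraries. The ratio of mean CPM was 36.5, and the fitted log2 fold was 5.11 (SE 1.495, adjusted p = 0.019). This call carries no weight of its own, since the gene passed the filter through IP alone. Input library 1 decides the size: without it the level in IP was at least 87.8-fold higher, taking a floor of 3 counts over the other two input libraries. Without pair 2, Psma8 was not called (adjusted p = 0.098). None of its 50-base stretches occurs in another gene. At 3.55 ± 0.561 CPM per kilobase in IP (SD, n = 3), its level was rank 40 of the 44 members there.

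Psmb11, the core subunit of thymic epithelium, had 0 counts in all IP libraries and 1 count in the input libraries together, and it was the member that could not be tested. Where a library shows 0, its true level may still reach the equivalent of 3 counts, by counting error alone.

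The base ATPases, a ring of 6 that unfolds substrates, had 3 members called lower in IP: Psmc1, Psmc5 and Psmc6. The median log2 fold of the ring was -0.66. Psmc1 was at 60.6, 50.8 and 37.4 CPM in IP libraries 1, 2 and 3, against 106.4, 130.4 and 113.2 CPM in input libraries 1, 2 and 3 (log2 fold -1.23, SE 0.21, adjusted p = 0.00095). Every IP library was below every input library. Psmc5 averaged 77.6 ± 11.3 CPM in IP and 160 ± 21.5 CPM in input (SD, n = 3 each, log2 fold -1.04, edgeR adjusted p = 0.0010). Psmc6 was at 16.0, 14.2 and 5.51 CPM in IP, against 26.1, 23.2 and 25.4 CPM in input (log2 fold -1.06, SE 0.39, adjusted p = 0.049). IP library 3 was the low one, and the call was lost in 10 of 20 alternatives. Psmc2, the ATPase with the highest fold, was at 102.9, 95.8 and 89.3 CPM in IP, against 92.7, 122.2 and 89.1 CPM in input (log2 fold -0.08, adjusted p = 0.75), and its groups overlapped.

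The other base subunits are the scaffolds Psmd1 and Psmd2 and the ubiquitin receptor Psmd4, and none was called by edgeR, DESeq2 or limma-voom, while 1 had an unadjusted p below 0.05. Psmd2 was at 138.1, 133.5 and 174.9 CPM in IP libraries 1, 2 and 3, against 140.2, 151.9 and 149.2 CPM in input libraries 1, 2 and 3 (log2 fold 0.02, adjusted p = 0.94). Psmd1 was at 68.5, 54.5 and 64.7 CPM in IP, against 82.6, 91.2 and 74.9 CPM in input (log2 fold -0.41, SE 0.17, adjusted p = 0.084). Psmd1 did not overlap between groups, while the IP values of Psmd2 lay on both sides of input.

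The lid had 4 of 8 members called lower in IP, Psmd14, Psmd7, Psmd12 and Psmd3, and a median log2 fold of -0.49. Psmd14, the deubiquitinase that cuts ubiquitin chains from substrates, was at 22.2, 23.0 and 31.7 CPM in IP libraries 1, 2 and 3, against 52.9, 67.4 and 54.4 CPM in input libraries 1, 2 and 3 (log2 fold -1.18, SE 0.22, adjusted p = 0.0019). Psmd7, the partner with which Psmd14 pairs in the lid, averaged 84.4 ± 11.5 CPM in IP and 170 ± 12.4 CPM in input (SD, n = 3 each, log2 fold -1.01, edgeR adjusted p = 0.00069). For both subunits every IP library was below every input library. Psmd11, a scaffold of the lid, was the standard subunit with the highest fold: 74.0, 62.4 and 64.9 CPM in IP, against 56.8, 54.9 and 61.4 CPM in input (log2 fold 0.22, SE 0.17, adjusted p = 0.32). All its IP libraries were above all input libraries, though the test was not passed. The calls of Psmd12 (log2 fold -0.74, edgeR adjusted p = 0.041) and Psmd3 (log2 fold -0.38, edgeR adjusted p = 0.040) were lost in 10 and 12 of 20 alternatives.

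IP library 3 stood low for some lid and chaperone genes. The lid subunit Psmd13 was at 62.6, 55.0 and 18.02 CPM in IP libraries 1, 2 and 3, against 64.0, 73.2 and 67.8 CPM in input libraries 1, 2 and 3 (log2 fold -0.59, SE 0.38, adjusted p = 0.23). Psmd5, a chaperone of base assembly, was at 17.7, 32.3 and 6.44 CPM in IP, against 41.5, 48.7 and 38.8 CPM in input (log2 fold -1.19, SE 0.47, adjusted p = 0.061). Its groups did not overlap, and with the pair as a block it was called lower (adjusted p = 0.011). IP library 3 had the smallest total, 10757351 counts, and the part of that in these values was not tested.

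Of the other chaperones of base assembly, Psmd10, also known as gankyrin, had the highest fold. It was at 25.6, 17.99 and 24.3 CPM in IP libraries 1, 2 and 3, against 12.8, 20.2 and 16.1 CPM in input libraries 1, 2 and 3 (log2 fold 0.47, SE 0.30, adjusted p = 0.23). IP library 2 lay within the input values. Psmd9 averaged 36.8 ± 7.31 CPM in IP and 44.7 ± 0.50 CPM in input (SD, n = 3 each, log2 fold -0.28, edgeR adjusted p = 0.31).

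Psme1, Psme2 and Psme2b were called higher in IP, though the Psme2 call was lost in some alternatives, and Psme3, Psme4 and the inhibitor Psmf1 were not called. PA28 alpha and beta, encoded by Psme1 and Psme2, form a ring that caps the core without ubiquitin or ATP and is induced by interferon. Psme1 (chromosome 14, 55578123 to 55581529, plus strand) was at 94.2, 96.2 and 91.3 CPM in IP libraries 1, 2 and 3, against 38.8, 39.4 and 32.8 CPM in input libraries 1, 2 and 3. Every IP library was above every input library (log2 fold 1.34, SE 0.17, adjusted p = 0.00014), and 2.27% of its 50-base stretches occur in other genes. Emc9 overlaps it on the other strand.

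Psme2 (chromosome 14, 55587441 to 55591113, minus strand) was at 24.7, 17.9 and 19.4 CPM in IP libraries 1, 2 and 3, against 10.1, 13.95 and 8.11 CPM in input libraries 1, 2 and 3 (log2 fold 0.95, SE 0.33, adjusted p = 0.039). With the pair as a block it was not called (adjusted p = 0.057), and it was lost in 9 of 20 alternatives, among them each that left out IP library 1, input library 1 or input library 3. Psme2b, a near-identical copy (chromosome 11, 48945354 to 48946190, minus strand), was at 61.0, 45.7 and 26.8 CPM in IP, against 13.2, 15.1 and 12.5 CPM in input (log2 fold 1.71, SE 0.32, adjusted p = 0.0016). Both genes lay higher in all IP than in all input libraries. Of the 50-base stretches of Psme2, 59.3% occur in Psme2b, and of those of Psme2b, 68.7% occur in Psme2, so how the reads split between the copies is uncertain. Psme2b also overlaps Gm12185 and 9930111J21Rik1 on its own strand.

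Psme3, the nuclear PA28 gamma, was at 144.5, 131.2 and 117.7 CPM in IP libraries 1, 2 and 3, against 151.8, 147.8 and 145.2 CPM in input libraries 1, 2 and 3 (log2 fold -0.18, SE 0.15, adjusted p = 0.36). Psme4, which encodes the activator PA200, was at 18.9, 12.5 and 24.3 CPM in IP, against 4.05, 8.49 and 16.0 CPM in input (log2 fold 0.96, SE 0.51, adjusted p = 0.15). Psme4 was higher in IP in each of the 3 pairs, but its groups overlapped and the input values were the most spread. Psmf1, the inhibitor PI31, was at 30.2, 36.8 and 38.3 CPM in IP, against 28.1, 41.2 and 33.0 CPM in input (log2 fold 0.04, SE 0.23, adjusted p = 0.90).

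Like Psmb10, Psme1, Psme2 and Psme2b, the endothelial markers were higher in IP when summed. Their sum was 232, 132 and 215 CPM in IP libraries 1, 2 and 3, against 21.2, 11.7 and 44.1 CPM in input libraries 1, 2 and 3. Across the IP libraries this sum was lowest in library 2. In that library Psmb10 and Psme1 were at their highest, 107.2 and 96.2 CPM. Psme2 was at its lowest there, at 17.9 CPM, and Psme2b, at 45.7 CPM, lay between its other IP values. The microglial markers summed to 19732, 24977 and 23495 CPM in IP libraries 1, 2 and 3. None of the 5 endothelial markers was at 0 in a whole group, and the part of endothelial cells in these results was not tested.

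Psmc3ip, the match that is not a subunit, was at 1.03, 1.02 and 2.80 CPM in IP libraries 1, 2 and 3, against 3.54, 4.84 and 1.74 CPM in input libraries 1, 2 and 3 (log2 fold -1.06, SE 0.98, adjusted p = 0.41). Its groups overlapped.

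**Figure D2:**
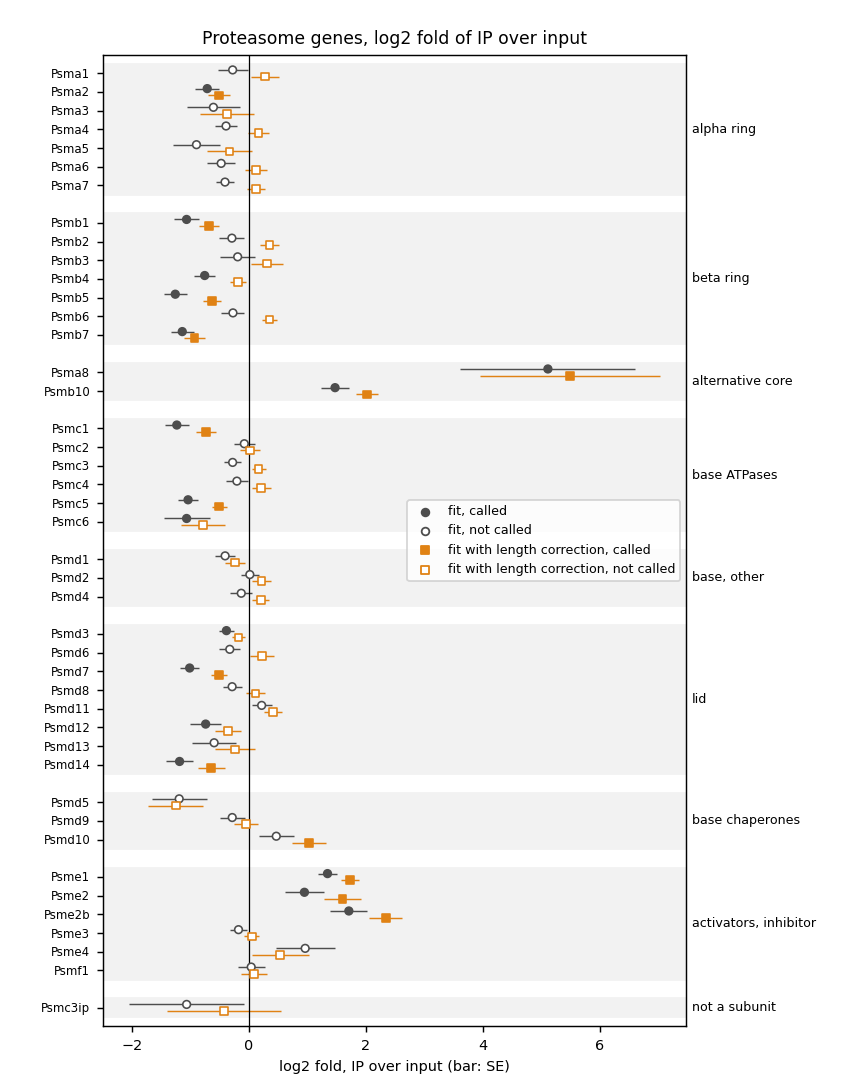
Log2 fold of IP over input for the 43 tested members (circles) and the same with a correction for transcript length (squares), with bars of 1 SE and filled symbols for calls. The 5 members called higher, Psma8, Psmb10, Psme1, Psme2 and Psme2b, lie right of 0 in both fits, and the squares of the standard subunits lie mostly to the right of their circles.

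Proteasome genes have short transcripts, and transcript length moved with the fold in these libraries. The median longest annotated transcript was 1883 bases over the tested members and 3166 bases over all tested genes, and 90.7% of tested members were shorter than the latter value. When all tested genes with a known length were split into 3 classes of like size, the median log2 fold was -0.45 in the short class (up to 2335 bases), -0.13 in the middle class and 0.30 in the long class (from 4095 bases). These classes held 30, 11 and 2 members, with medians of -0.36, -0.28 and -0.11. In the short class, then, members lay slightly above the genes of like length, and in the other classes below them. Spearman's rho of fold and length was 0.06 across the 43 members and 0.19 across all tested genes, and genes are not independent replicates. With the median length of coding transcripts in place of the longest, rho across members was -0.38.

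When each library's trend with length was taken out in the fit, the member median became 0.087, against 0.017 over all tested genes, and 6 members were called higher and 8 lower, where 24.8% of all tested genes were called higher and 22.6% lower. Of the 31 standard subunits, 0 were called higher and 8 lower, with a median of -0.18, so the share called lower was near the background. The length-corrected log2 fold was -0.63 for Psmb5, -0.93 for Psmb7, -0.73 for Psmc1, -0.64 for Psmd14, 2.02 for Psmb10 and 1.73 for Psme1, and all of these passed the test. Psmb4, Psmc6, Psmd12 and Psmd3 were no longer called, and Psmd10 became called as higher (log2 fold 1.03, adjusted p = 0.018). The fold of 14 members crossed 0 with the correction, all of them uncalled without it. With the median coding length, a choice made after the data were seen, 6 members were called higher and 9 lower, with a median of -0.043, where 24.5% of all tested genes were called higher and 23.2% lower.

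**Figure D3:**
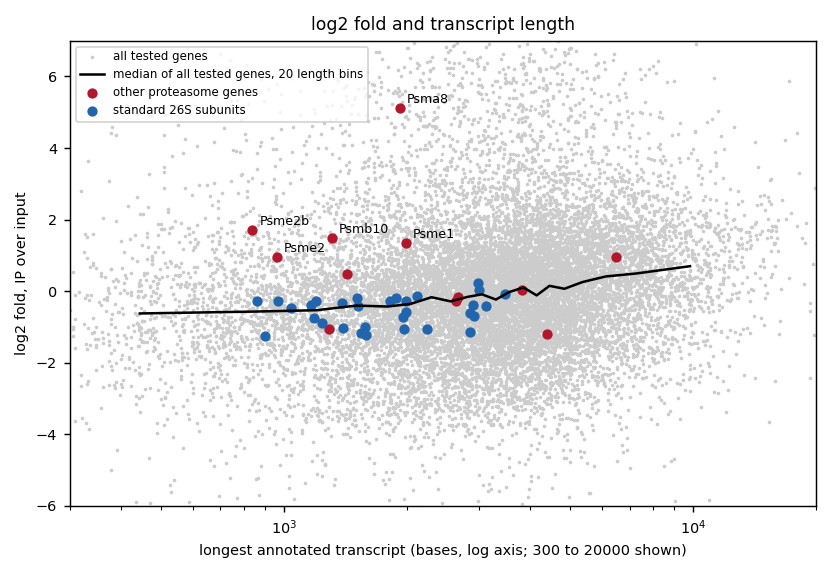
Log2 fold of IP over input against the longest annotated transcript (log axis) for all tested genes (grey), with their median in 20 length bins (line), the standard 26S subunits (blue) and the other proteasome genes (red). Blue points lie close to the line on both sides of it, or farther below it, while Psmb10, Psme1, Psme2, Psme2b and Psma8 lie above it.

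Calls that were kept under every one of the 20 alternatives, the length corrections and the leave-out fits included, numbered 7 of 12 for lower members and 3 of 5 for higher members. Psma8 is among the 5 but not among the 3. The lower ones were the core subunits Psmb1, Psmb5 and Psmb7, the ATPases Psmc1 and Psmc5 and the lid subunits Psmd7 and Psmd14. The higher ones were Psmb10, Psme1 and Psme2b, and how reads split between Psme2b and Psme2 is uncertain. Of the lower ones, Psmb5 and Psmc1 share 57.1% and 17.6% of their 50-base stretches with other genes. No alternative changed how reads were assigned to genes. Among the 27 tested members with under 3% of their 50-base stretches in other genes, 3 (11.1%) were called higher and 9 (33.3%) lower, against 23.8% and 23.9% over all tested genes. Psma8 is among these 3 higher members.

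The subunits of a stoichiometric complex had unequal levels per length, by an amount that rests on the annotated length used. Per kilobase of the longest transcript, Psmb6 was the highest member in both groups, at 148 ± 27.4 CPM in IP and 179 ± 34.3 CPM in input, and Psmb4 was next, at 87.3 ± 13.7 CPM in IP and 147 ± 21.8 CPM in input (SD, n = 3 each). Psma3 was the lowest standard subunit, at 3.13 ± 1.43 CPM per kilobase in IP and 4.76 ± 0.979 in input, which is 47.4-fold below the highest in IP and 37.6-fold in input. By median coding length the extremes were other subunits: Psmd2 was the highest, at 225.8 CPM per kilobase in IP and 223.2 in input, and Psma5 the lowest, at 5.22 in IP and 9.73 in input, spans of 43.3-fold and 22.9-fold. Of the 50-base stretches of Psma3, Psmd2 and Psma5, 22.02%, 26.05% and 55.4% also occur in other genes. Their counts, and with them the spans by either length, are therefore uncertain. The order of levels was alike in both groups, with a Spearman's rho of 0.86 across 43 members and 0.91 across the 31 standard subunits, which share libraries and lengths. Psmb10 was rank 6 of 44 in IP and rank 27 in input, Psme1 was rank 16 in IP and rank 29 in input, and Psmb5 was rank 18 in IP and rank 6 in input. By median coding length, Psmb10 was rank 13 in IP and rank 31 in input, Psme1 was rank 4 in IP and rank 25 in input, Psmb5 was rank 23 in IP and rank 10 in input, and Psmb6 was rank 3 in IP and rank 2 in input.

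**Figure D4:**
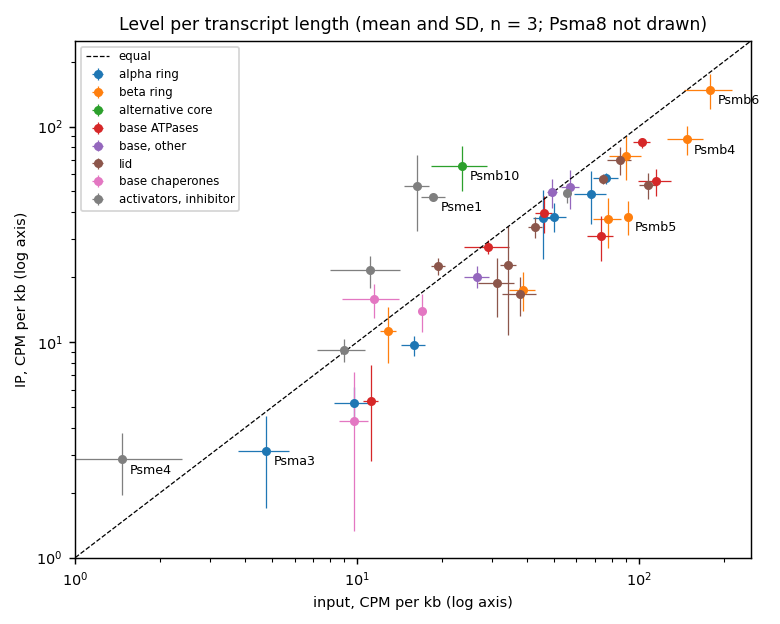
Mean level per kilobase of the longest transcript in IP (vertical) against input (horizontal), both in CPM on log axes, with bars of 1 SD over 3 libraries, coloured by role. Psma8 is not drawn. Psmb6 and Psmb4 lie at the top right, most subunits lie below the dashed line of equality, and Psmb10 and Psme1 lie above it.

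Genes around the particle were called in both directions. Of 30 tested genes in 4 pathway lists, 5 were called higher and 5 lower in IP, or 16.7% in each direction, which is below the 23.8% higher and 23.9% lower over all tested genes. Only 3 were called higher without pair 1 or without any single input library, and only 3 lower without pair 3, input library 1 or input library 3. Of 7 genes for other subunits and core assembly, 0 were called by edgeR, DESeq2 or limma-voom, and 0 had an unadjusted p below 0.05. Their median log2 fold was -0.34. Of 14 tested partners of the proteasome, 2 were called higher and 4 lower. Ecpas, an adaptor that tethers proteasomes, was at 61.2, 45.2 and 71.4 CPM in IP libraries 1, 2 and 3, against 25.2, 19.8 and 29.1 CPM in input libraries 1, 2 and 3 (log2 fold 1.26, SE 0.25, adjusted p = 0.0023). Ubqln2, a shuttle that carries ubiquitinated proteins to the proteasome, was at 72.6, 83.5 and 58.6 CPM in IP, against 286.3, 227.8 and 242.9 CPM in input (log2 fold -1.82, SE 0.18, adjusted p = 3.1e-05). For both genes the groups did not overlap.

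Of the 4 regulators of subunit transcription, 2 were called higher and 0 lower. Nfe2l2 encodes NRF2, which binds the antioxidant response element and can raise transcription of proteasome genes. It was at 133, 169 and 145 CPM in IP libraries 1, 2 and 3, against 12.8, 14.9 and 14.1 CPM in input libraries 1, 2 and 3 (log2 fold 3.42, SE 0.19, adjusted p = 6.4e-07). Ddi2, the protease that activates the related factor NRF1, averaged 91.5 ± 15.4 CPM in IP and 32.7 ± 9.69 CPM in input (SD, n = 3 each, log2 fold 1.48, edgeR adjusted p = 0.0010). Nfe2l1, which encodes NRF1 and was named after its values were seen, averaged 289 ± 35.7 CPM in IP and 356 ± 37.4 CPM in input (SD, n = 3 each, log2 fold -0.30, edgeR adjusted p = 0.14). With the length correction it was called lower (log2 fold -0.40, edgeR adjusted p = 0.029). How the level of Nfe2l2 relates to the standard subunits, of which 0 of 31 were called higher, was not tested.

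Of 5 genes for VCP and its cofactors, which pull ubiquitinated proteins out of complexes, 1 was called higher and 1 lower: Vcp (log2 fold 0.53, edgeR adjusted p = 0.045) and Ufd1 (log2 fold -0.93, edgeR adjusted p = 0.020). The call of Vcp was lost with the pair as a block (adjusted p = 0.074), without IP library 1 or 2 and without any single input library, and that of Ufd1 without IP library 2, without input library 2 and with the length correction.

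**Figure D5:**
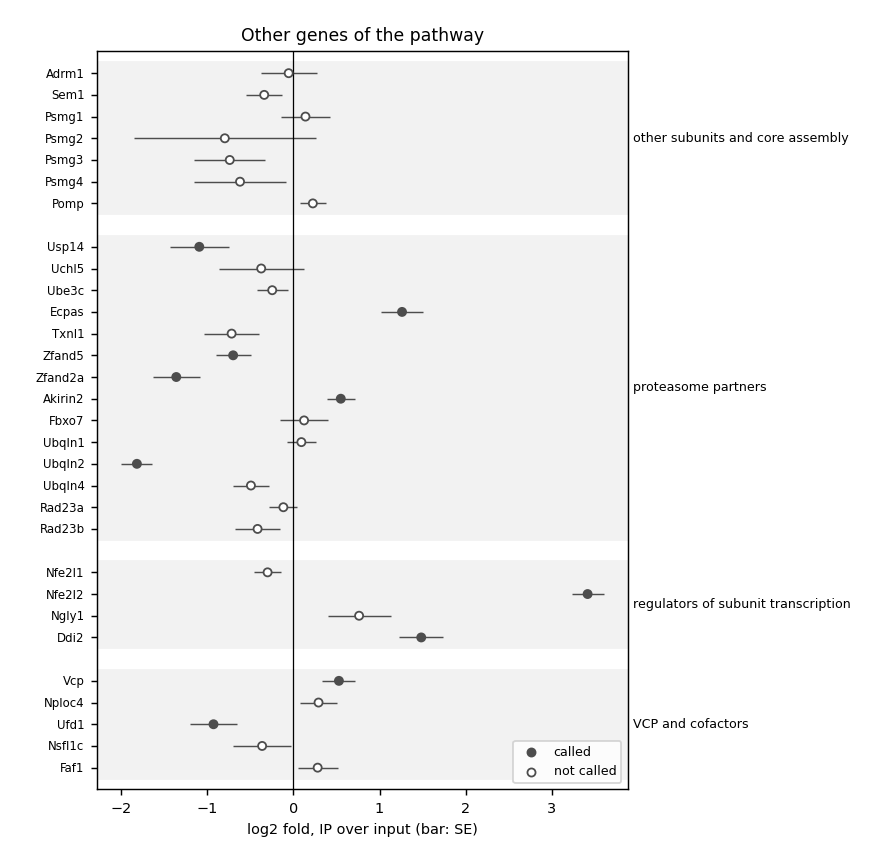
Log2 fold of IP over input with bars of 1 SE for the 30 tested genes of the pathway lists, filled where called. Nfe2l2 lies farthest right at 3.42 and Ubqln2 farthest left at -1.82, and none of the other subunits and core assembly factors is filled.

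Other complexes gave a comparison for the standard particle. Over all tested genes, 23.8% were called higher and 23.9% lower, and 24.8% and 22.6% after length correction. The COP9 signalosome, which is related in build to the proteasome lid, had 8 of 10 genes called lower and 0 called higher in IP, and its median log2 fold was -0.95, with 4 lower and a median of -0.54 after length correction. The CCT chaperonin, a folding complex of 8 subunits, had 3 of 8 called lower and 0 higher, with a median of -0.33, and 1 higher and 2 lower with a median of 0.029 after length correction. Neither of these complexes had a gene called higher by DESeq2 or limma-voom, or higher at an unadjusted p below 0.05. The 31 standard proteasome subunits, with 12 lower and a median of -0.41, lay between these medians, and the differences between the complexes were not tested. After length correction 8 of the 31 were called lower, near the share over all tested genes.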

How the data were processed

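The deposited table holds whole-number read counts per gene, which the authors did not normalize, per the labels and the values. Per the labels' protocols, stranded libraries followed mRNA enrichment. The submitters' processing notes name FastQC, Trimmomatic and bcl2fastq 2.17, and the build mm10. The sources used here give no aligner, counter, strand setting or annotation release. GENCODE M21 (GRCm38) named 37693 of 39017 identifiers, and unnamed ones held 0.403% to 0.464% of a library's counts and stayed in all totals.

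IP was tested against input with edgeR 4.0.16 in R 4.3.3 (quasi-likelihood F test, TMM, filterByExpr with a minimum count of 10, robust, prior count 0.125, no block), after a check on simulated data. There, with few genes set to differ, 18.75% of 2-fold and 53.5% of 4-fold changes were called, and 7 of 78 calls were false. A gene that was not called is therefore not shown to be level. Depth bounds precision: a 0 allows 3 counts. The length correction used per-library lowess trends (span 0.3) as offsets. Alternatives used DESeq2 1.42.0 and limma 3.58.1, among others.

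Pairs come from the shared title code. Deviations from group means correlated at 0.05, 0.25 and 0.17 within codes and at -0.19 to 0.05 between codes, over 10422 genes.

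Members and lists were chosen with earlier results of these data known. Values in every library are given, by rule, for the subunits with the highest and lowest fold of each subcomplex, the catalytic subunits, Psmb10, the activators, Psmf1 and the member highest per length, and pathway genes are those called with the highest and lowest fold of each list. Psma8, Psmb4, Psmc6, Psmd13, Psmc3ip and Nfe2l1 were added after their values were seen. Psme3ip1 and Paaf1 had no match. A further pathway list is not reported here.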

Additional observations from a re-analysis of the deposited data

How the results depend on the processing

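The 20 alternatives were other scalings (3), other filters (2), DESeq2, limma-voom, the pair as a block, 3 length corrections and 9 leave-out fits. Between 4 and 6 members were called higher and between 7 and 17 lower. The block gave 4 higher and 13 lower, and it changed no member's call other than those of Psme2 and Psmd5. Of the values of single genes in the alternatives, 875 kept direction and side of the threshold, 67 lost a call, 26 gained one and 52 changed sign, none of these in a gene called in the main test.

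Scaling by library totals or upper quartiles moved the median log2 fold of all genes by -0.101 and -0.128. Under these scalings the median was -0.42 and -0.45 for members, -0.76 and -0.79 for ATPases, -0.24 and -0.26 for other base subunits and -0.60 and -0.62 for the lid. With upper quartiles, 3 genes of the pathway lists were called higher and 8 lower. The lid median was -0.57 with the block, and the regulator median 1.004 with upper quartiles. With the length correction, the same with the block, and the correction by median coding length, in that order, the median was 0.087, 0.093 and -0.043 for members, 0.12, 0.10 and -0.22 for the alpha ring, -0.18, -0.19 and -0.42 for the beta ring, -0.24, -0.23 and -0.35 for ATPases, 0.20, 0.19 and 0.19 for other base subunits, -0.21, -0.28 and -0.18 for the lid, and 0.82, 0.77 and 0.97 for regulators. Base chaperones had -0.054 with the correction and -0.023 by median coding length. Spearman's correlation of fold and length over members was -0.26, -0.25 and 0.019 under these corrections, and -0.38 when length was the median coding length. The span of input levels was 22.9-fold by that length. The length correction takes out the trend by construction, and causes of the other shifts were not tested.

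Leaving out 1 library or 1 pair gave 2782 to 3910 genes called higher and 2467 to 4192 lower over all genes, 4 to 5 members called higher and 7 to 11 lower, 3 to 5 pathway genes called higher and 3 to 5 lower, and a member median of -0.42 to -0.30. It gave medians of -0.65 to -0.45 for the alpha ring, -0.91 to -0.65 for the beta ring, -0.78 to -0.50 for ATPases, -0.25 to -0.11 for other base subunits, -0.65 to -0.42 for the lid, 0.97 to 1.26 for regulators, and a Spearman's correlation of 0.025 to 0.093. Without pair 1, 2467 genes were called lower.

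With the length correction, the log2 fold changed sign to 0.27 for Psma1, 0.17 for Psma4, 0.12 for Psma6, 0.13 for Psma7, 0.35 for Psmb2, 0.31 for Psmb3, 0.35 for Psmb6, 0.022 for Psmc2, 0.17 for Psmc3, 0.21 for Psmc4, 0.20 for Psmd4, 0.22 for Psmd6, 0.11 for Psmd8, 0.050 for Psme3. With the length correction with the block, the log2 fold changed sign to 0.24 for Psma1, 0.18 for Psma4, 0.10 for Psma6, 0.12 for Psma7, 0.34 for Psmb2, 0.29 for Psmb3, 0.35 for Psmb6, 0.036 for Psmc2, 0.16 for Psmc3, 0.20 for Psmc4, 0.19 for Psmd4, 0.21 for Psmd6, 0.093 for Psmd8, 0.048 for Psme3. With the correction by median coding length, the log2 fold changed sign to 0.024 for Psma1, 0.053 for Psmb3, 0.13 for Psmc2, 0.012 for Psmc3, 0.12 for Psmc4, 0.19 for Psmd4, 0.013 for Psmd8, 0.092 for Psme3. Under library totals it was -0.079 for Psmd2 and -0.063 for Psmf1, and under upper quartiles -0.11 for Psmd2 and -0.087 for Psmf1. Under limma-voom it was -0.000828 for Psmd2. Over the leave-out fits it ran from -0.19 to 0.067 for Psmc2, from -0.13 to 0.099 for Psmd2, from -0.25 to 0.022 for Psmd4, from -0.085 to 0.17 for Psmf1. Smaller counts limit Psma8, Psme4 and Psmc3ip.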
